A study of Mus musculus with 56 samples.

Results

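The extracellular matrix of a tumor is the protein scaffold laid down mainly by its connective tissue cells. The 44 genes described here encode that scaffold, the enzymes that cross-link it and surface proteins of the cells that make it. They are 13 collagens besides type IV, 8 basement membrane genes, 6 proteoglycans, 6 matricellular or small matrix proteins, 5 elastic fiber genes, 3 lysyl oxidases and 3 surface proteins of stromal cells. Members were listed by gene symbol, and the list was set with earlier results of these data known. A gene was read from its probe set with the highest mean over all arrays, among probe sets that the platform annotation gives to 1 gene only. Of the 44 members, 43 had such a probe set and all 43 passed the filter on low values, out of 12508 genes tested and 18194 named on the array. The lysyl oxidase gene Loxl2 was not analysed here.

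Fibrillar collagens such as types I and III are secreted by fibroblasts, trimmed outside the cell and cross-linked by lysyl oxidases into fibers that carry tension. Basement membranes are thin sheets of type IV collagen, laminin and nidogen that lie under epithelium and around blood vessels and fat cells. Small proteoglycans such as decorin coat the fibers, and the cytokine TGF-beta 1 is a known inducer of collagen genes in fibroblasts and is itself stored in the matrix.

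RNA was measured in 56 mammary tumors, 1 array each. The tumors grew from p53null mouse mammary fragments placed in the inguinal fat pads of female BALB/c hosts whose own mammary epithelium had been cleared at 3 weeks of age. Hosts were wild type or TGFb1 heterozygotes, and were irradiated or sham-irradiated 3 days before they received the fragments, which were not irradiated themselves. There were 9 tumors of sham-irradiated and 23 of irradiated wild-type hosts, and 6 of sham-irradiated and 18 of irradiated heterozygote hosts. All 4 groups thus share the BALB/c strain, the p53null transplant and the cleared fat pad. The sources used here do not give the radiation dose or say whether some tumors shared a host, so p-values measure the spread between these tumors. Values are log2 expression, so a difference of 1 is a doubling of the normalized signal. Array medians ran from 5.92 to 6.00 in wild-type and from 5.57 to 5.71 in heterozygote hosts, without overlap, so levels were compared within a host genotype. The design asks whether irradiating the host, with its Tgfb1 genotype, changed the tumor that later arose.

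Several pairs of members sit close together in the genome, and their start regions are shown for the fibrillar and type VI collagens whose values are followed below. The RefSeq table of build GRCm38.p6 held start regions of 27 members. In the 250 bases before the start site, CCAAT, a common promoter element, was found on either strand in 9 of the 27 (33.3%) and in 34.5% of all 27025 start regions. CAGACA, a sequence that SMAD proteins of the TGF-beta pathway are known to bind, was found in 7 of 27 (25.9%) against 17% of all. GGGCGG was found in 13 of 27 (48.1%) against 32.7%, and TATAAA in 4 of 27 (14.8%) against 13.0%. A match is a description of letters, not of a used site. Below, capitals mark CCAAT or its reverse complement ATTGG, and CAGACA or its reverse complement TGTCTG; each line ends at the base before the start site, read 5′ to 3′ on the gene's strand.
Col1a2, plus strand, chr6:4505368-4505617: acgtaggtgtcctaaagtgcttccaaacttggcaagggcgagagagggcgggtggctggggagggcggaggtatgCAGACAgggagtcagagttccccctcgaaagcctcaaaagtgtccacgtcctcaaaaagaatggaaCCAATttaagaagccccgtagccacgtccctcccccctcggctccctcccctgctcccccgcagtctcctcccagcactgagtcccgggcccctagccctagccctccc
Col3a1, plus strand, chr1:45311288-45311537: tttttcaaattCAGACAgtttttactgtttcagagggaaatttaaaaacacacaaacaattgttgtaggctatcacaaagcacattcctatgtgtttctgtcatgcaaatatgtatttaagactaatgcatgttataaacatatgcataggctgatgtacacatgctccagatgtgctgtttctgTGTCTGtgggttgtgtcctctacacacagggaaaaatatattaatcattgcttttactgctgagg
Col6a1, minus strand, chr10:76726045-76726294: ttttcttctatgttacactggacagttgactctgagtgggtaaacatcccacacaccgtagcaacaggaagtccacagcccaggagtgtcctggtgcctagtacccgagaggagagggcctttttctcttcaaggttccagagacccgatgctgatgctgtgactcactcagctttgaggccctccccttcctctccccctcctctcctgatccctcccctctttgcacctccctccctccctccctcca
Col6a2, minus strand, chr10:76623631-76623880: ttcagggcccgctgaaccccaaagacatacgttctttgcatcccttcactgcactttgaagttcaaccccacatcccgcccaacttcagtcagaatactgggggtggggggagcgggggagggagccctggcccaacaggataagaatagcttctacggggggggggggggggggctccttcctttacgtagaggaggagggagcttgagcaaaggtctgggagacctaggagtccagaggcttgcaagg
Col1a2 has 1 CCAAT and 1 CAGACA, and Col3a1 has 2 CAGACA and 1 TATAAA. The Col6a1 and Col6a2 windows hold none of these 3 sequences, and they differ in base content: GC made up 56% of the Col6a1 window and 59.2% of that of Col6a2, against 62.0% for Col1a2 and 35.2% for Col3a1. Col6a1 and Col6a2 lie 85161 bases apart on chromosome 10, Dcn and Lum 47337 bases apart on the same chromosome, and Col3a1 and Col5a2 24624 bases apart on chromosome 1. Col4a1 and Col4a2 face away from each other on chromosome 8, on opposite strands. The start sites of their start regions lie 21 bases apart, where that of Col4a1 is not its outermost start. From the outermost starts, the gene models overlap by 85 bases.

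The matrix genes varied more from tumor to tumor than most genes did. The SD within groups, pooled over the 4 groups, had a median of 0.94 over the 43 members against 0.41 over all genes tested. It was above that all-gene median for 43 of 43 members, and 17 members were among the tenth of all genes that varied most. The smallest SD was 0.57, for Lama4, a laminin chain of vessel walls, and the largest 1.55, for Ogn, the small proteoglycan osteoglycin. Dcn, Pdgfra, Loxl1 and Fmod followed Ogn with SDs of 1.48, 1.46, 1.33 and 1.33. In bulk RNA, fewer stromal cells and less RNA of a gene per stromal cell cannot be told apart.

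A few tumors held the extremes of most members. Among wild-type hosts, tumor 46 of a sham-irradiated host was highest for 16 of the 43 members, and it also had the highest level of the endothelial gene Pecam1, at 12.26, where the group median was 7.24. Tumor 3 of a sham-irradiated wild-type host was lowest for 9 members. Tumor 16 of an irradiated wild-type host was lowest for 10 members and highest for 4. It had the highest Col4a1 and Vcan of its group, 13.83 and 12.23, and the lowest Col1a1, 9.12. Among heterozygote hosts, tumor 7 of an irradiated host was highest for 13 members and tumor 19 of a sham-irradiated host for 10. Tumor 51 of an irradiated host was lowest for 19 members, and tumor 52 of a sham-irradiated host for 11. Tumor 19 also had the highest 3′ minus 5′ difference of its group, 0.69, and the lowest 18S control signal, 9.80.

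The mean of the 43 members tended to be high where the epithelial gene Epcam was low. Epcam fell into separate clusters: 9 tumors lay at or below 11.52 and the other 47 at or above 12.74. The low cluster held 2 of 9 tumors of sham-irradiated and 3 of 23 of irradiated wild-type hosts, and 2 of 6 of sham-irradiated and 2 of 18 of irradiated heterozygote hosts. In wild-type hosts the member mean of the 5 low tumors ran from 10.26 to 11.29, ranks 1, 2, 3, 4 and 7 of 32, while the other 27 ran from 8.92 to 10.58 with a median of 9.60. In heterozygote hosts the 4 low tumors ran from 9.80 to 11.43, ranks 1, 2, 4 and 9 of 24, and the other 20 from 8.51 to 10.94 with a median of 9.53. Both clusters overlapped in both genotypes. The mean of 7 skeletal muscle genes was 10.84, 9.90 and 11.42 in low tumors 60, 11 and 59 of wild-type hosts. It was 5.04 and 4.85 in low tumors 46 and 25, and the group medians were 5.04 in sham and 5.12 in irradiated hosts. Muscle signal was not confined to the low cluster, with 10.76 in high tumor 42 of an irradiated heterozygote host. The part of muscle in the member means was not tested. Within the high Epcam cluster, the level of Col1a1, the main chain of type I collagen, showed no detectable relation to Epcam. Pearson's r was 0.01 in 27 tumors of wild-type hosts (permutation p = 0.944, Spearman's rho = -0.01). It was -0.19 in 20 of heterozygote hosts (permutation p = 0.426, rho = -0.20).

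**Figure D1:**
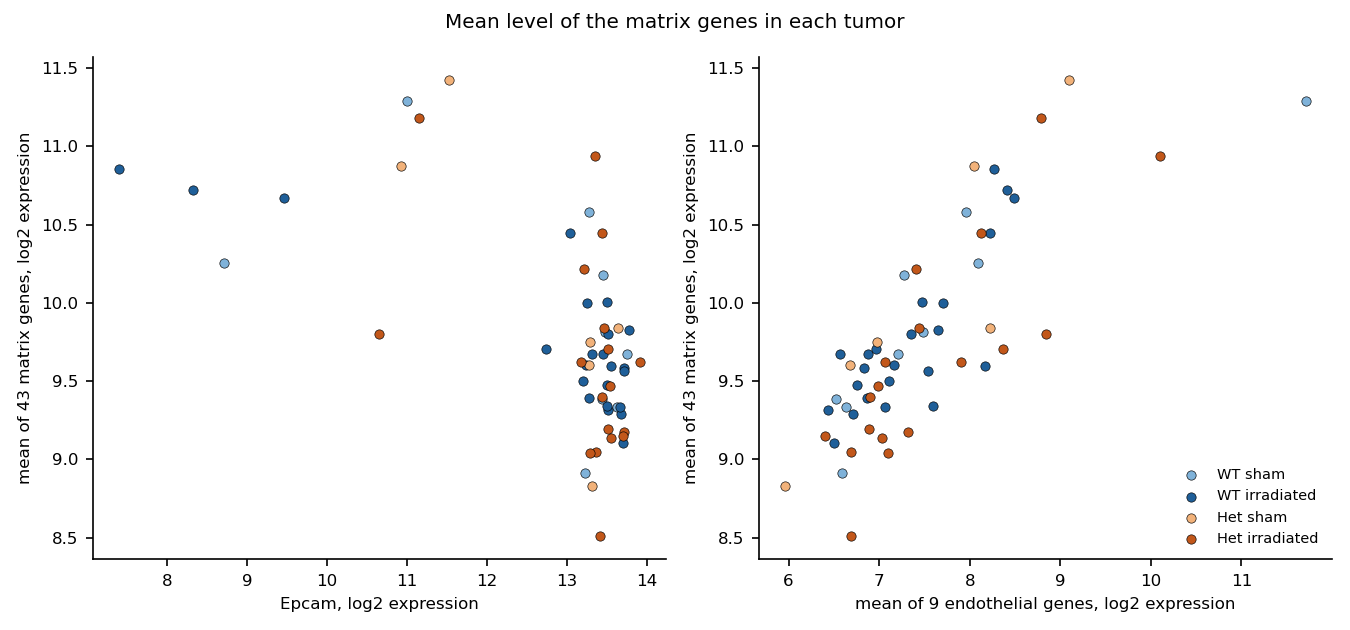
Mean log2 expression of the 43 matrix genes (vertical axis) in each of 56 tumors against Epcam (left) and against the mean of 9 endothelial genes (right), both in log2 expression, 1 point per tumor and 1 color per group. The 9 tumors with Epcam below 12 run from 9.80 to 11.43 and overlap the others, which run from 8.51 to 10.94.

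No member was called in any comparison of irradiated with sham-irradiated hosts. In wild-type hosts limma with Benjamini-Hochberg adjustment called 0 of 43 members at an adjusted p below 0.05 and 0.0% of all genes, and 1 of 43 had an unadjusted p below 0.05, a decrease, against 3.9% of all genes in that direction and 3.17% in the other. In heterozygote hosts it called 0 of 43 members and 0.0% of all genes, and 2 of 43 had an unadjusted p below 0.05, both decreases, against 2.95% of all genes in that direction and 2.89% in the other. Averaged over both genotypes, 0 of 43 members and 0.00799% of all genes were called, and 2 of 43 had an unadjusted p below 0.05, both decreases, against 4.02% of all genes in that direction and 3.75% in the other. For the difference of the irradiation effect between genotypes, 0 of 43 members and 0.0% of all genes were called, and 1 of 43 had an unadjusted p below 0.05 against 2.15% of all genes in that direction and 2.69% in the other. The irradiated and sham values overlapped for 43 of 43 members in each genotype; 0.0% of all genes had groups that did not overlap.

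Most estimates were below 0, though none passed the test. In wild-type hosts 34 of 43 log2 fold changes (irradiated minus sham) were negative, with a median of -0.17, against 50.7% negative and a median of -0.00 over all genes. In heterozygote hosts 39 of 43 were negative, with a median of -0.42, against 48.2% and 0.01 over all genes. Averaged over genotypes 38 of 43 were negative, with a median of -0.32, against 49.6% and 0.00 over all genes. Members vary together across tumors, as given below, so these counts are not 43 separate observations. Of 42 other probe sets of the members that passed the filter, 5 had the opposite sign in wild-type hosts (Col8a1, Fbln1, Lamb1, Pdgfra and Thbs2). In heterozygote hosts 4 did (Col18a1, Col8a1, Lamb1 and Lamc1). The 18S control moved with the wild-type groups: its mean was 11.28 ± 1.78 (SD, n = 9) in sham and 12.74 ± 0.90 (SD, n = 23) in irradiated hosts. With 18S as a covariate the wild-type median became 0.12 with 15 of 43 negative. Of 12 alternative settings only that 1 turned its sign. With arrays of low 18S left out, another of the 12, the wild-type median stayed below 0. The 3′ minus 5′ difference of control probe sets differed between the heterozygote groups. Its mean was 0.40 ± 0.17 (SD, n = 6) in sham and 0.27 ± 0.11 (SD, n = 18) in irradiated hosts. Without the 9 tumors of low Epcam, a choice made after seeing the data, the median was -0.09 in wild-type hosts with 28 of 43 negative and 0.05 in heterozygote hosts with 19 of 43 negative. Leaving out tumor 46 of the sham-irradiated wild-type hosts gave a median of -0.01, and leaving out tumor 19 of the sham-irradiated heterozygote hosts gave -0.10. Other tumors moved the medians the other way: without sham tumor 3 the wild-type median was -0.31. Without sham tumor 52 the heterozygote median was -0.67. The part of 18S, the 3′ minus 5′ difference, epithelial content and single tumors in these medians beyond those values was not tested.

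**Figure D2:**
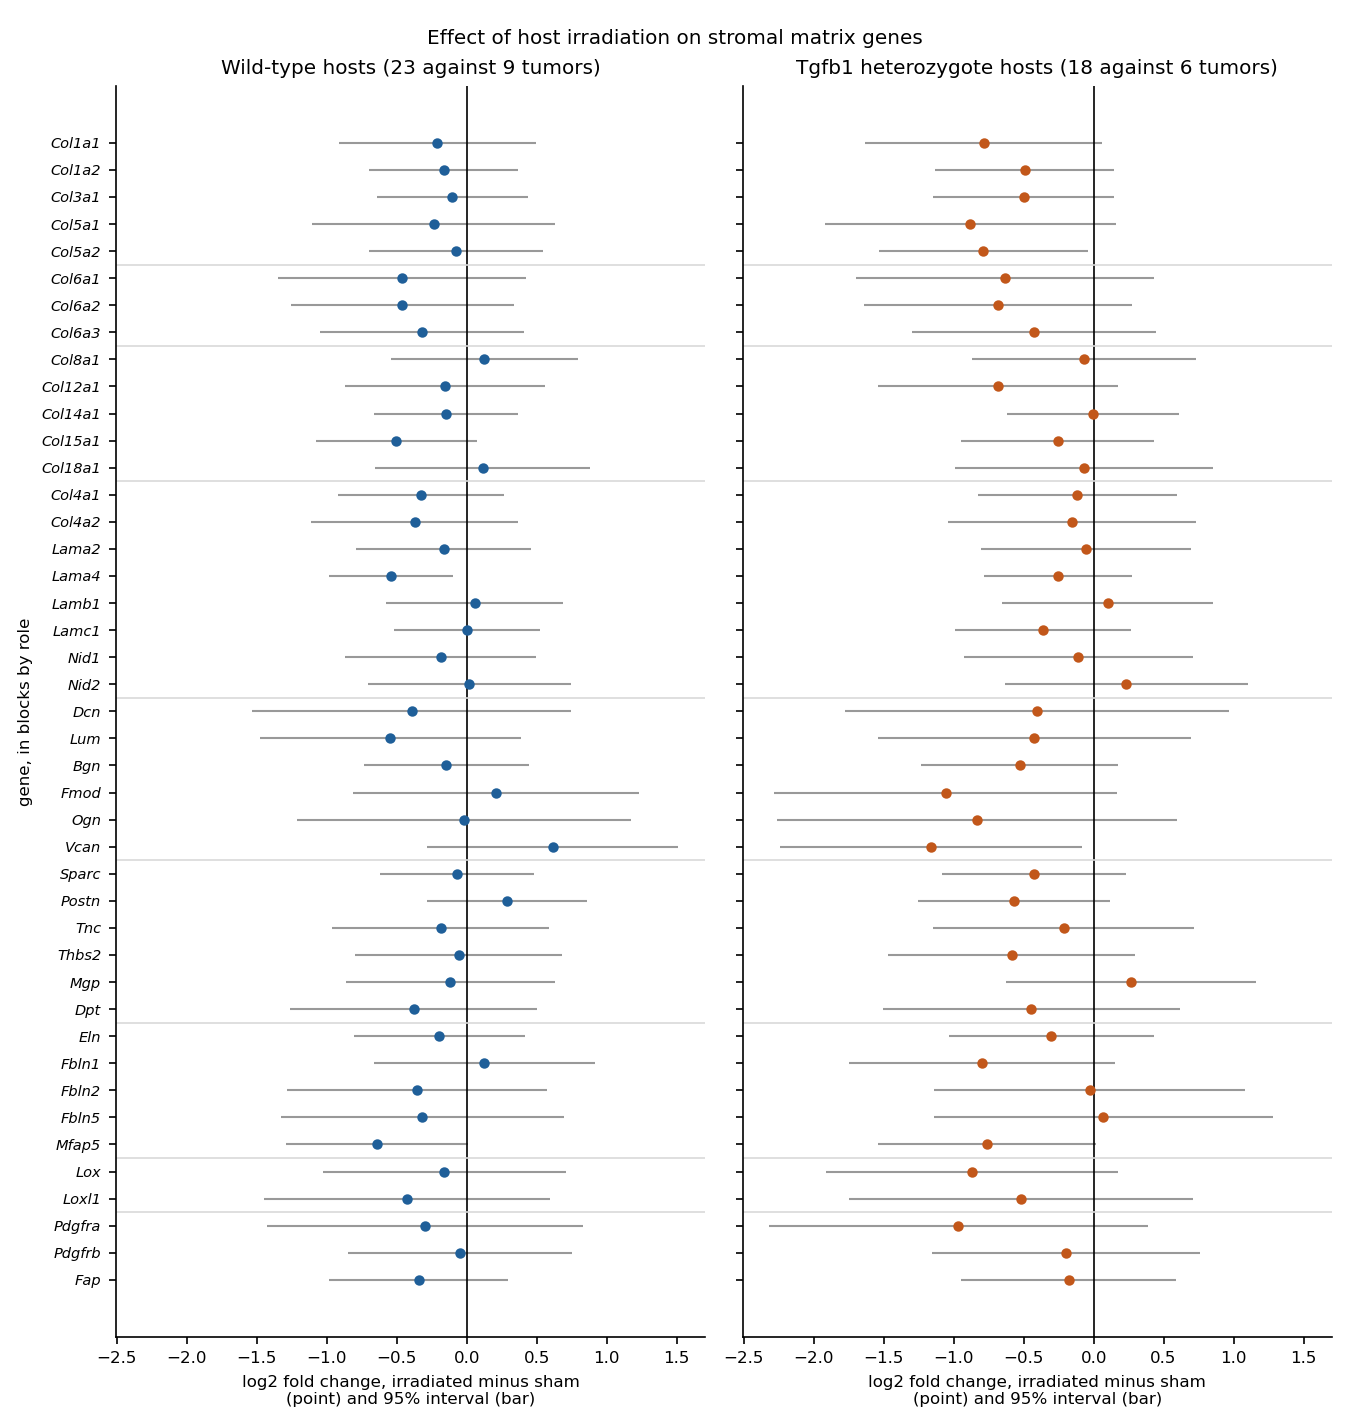
Log2 fold change (irradiated minus sham, horizontal axis) of each of 43 matrix genes in wild-type hosts (left) and heterozygote hosts (right), with 95% intervals as bars and genes in blocks by role. Most points lie left of 0, 34 of 43 and 39 of 43; intervals that leave out 0 are those of Lama4 on the left and of Col5a2 and Vcan on the right.

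The fibrillar collagens form the tension-bearing fibers. Col1a1 ran from 9.49 to 12.18 (median 10.61) in tumors of sham-irradiated wild-type hosts and from 9.12 to 11.84 (median 10.69) in those of irradiated ones. Its range was 9.81 to 12.98 (median 10.55) in sham and 8.79 to 12.40 (median 10.06) in irradiated heterozygote hosts. The groups overlapped across most of their range, and 2 sham-irradiated heterozygote tumors, 15 and 19, stood above the other 4. The log2 fold change was -0.21 (95% interval -0.92 to 0.50, adjusted p = 0.948) in wild-type and -0.78 (-1.63 to 0.06, adjusted p = 0.874) in heterozygote hosts. With each tumor left out in turn, the wild-type value ran from -0.37 (without sham tumor 3) to -0.04 (without sham tumor 46). The heterozygote value ran from -1.06 (without sham tumor 52) to -0.42 (without sham tumor 19). Col3a1, whose product forms mixed fibers with type I collagen, had values of 11.99 to 13.86 (median 13.01) in sham and 12.21 to 14.27 (median 12.88) in irradiated wild-type hosts. In heterozygote hosts these were 12.22 to 14.28 (median 12.95) and 11.09 to 14.28 (median 12.55). Its fold changes were -0.10 (SE 0.27, adjusted p = 0.967) and -0.50 (SE 0.32, adjusted p = 0.903).

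Col5a2 belongs to type V collagen, which sets the width of type I fibers. It ran from 10.38 to 13.61 (median 11.81) in sham and from 9.98 to 12.91 (median 11.28) in irradiated heterozygote hosts, and 3 of the 18 irradiated tumors lay above the sham median. The fold change there was -0.79 (SE 0.37), with an unadjusted p of 0.0387 and an adjusted p of 0.838. Without the tumors of low Epcam it was -0.00. In wild-type hosts the ranges were 10.85 to 13.02 (median 11.61) and 10.62 to 13.46 (median 11.84), with a fold change of -0.07 (SE 0.31, adjusted p = 0.979). Col1a2 and Col5a1, the remaining fibrillar chains, had fold changes of -0.17 and -0.24 in wild-type and -0.49 and -0.88 in heterozygote hosts, so that 5 of 5 estimates were negative in each genotype.

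Type VI collagen forms beaded microfilaments around cells. Col6a1 ran from 8.92 to 12.44 (median 10.13) in sham and from 8.76 to 12.29 (median 9.74) in irradiated wild-type hosts. Its heterozygote values ran from 8.73 to 12.71 (median 10.12) and from 8.0 to 12.93 (median 9.77). The sham and irradiated ranges nearly coincided in both genotypes, with a few tumors of each group well above the rest. Fold changes were -0.46 (95% interval -1.35 to 0.42, adjusted p = 0.898) and -0.63 (-1.70 to 0.43, adjusted p = 0.930). They were -0.23 without sham tumor 46 and -0.20 without sham tumor 19. Col6a2 and Col6a3 gave -0.46 and -0.32 in wild-type and -0.68 and -0.42 in heterozygote hosts.

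Among the other collagens, Col15a1 encodes a collagen of the zone beneath basement membranes. It ran from 7.31 to 11.17 (median 8.13) in sham and from 7.11 to 9.36 (median 7.80) in irradiated wild-type hosts. The value of 11.17 was tumor 46, and the other 8 sham tumors ended at 8.44. The fold change was -0.50 (SE 0.29, adjusted p = 0.756), and 5 of 23 irradiated tumors lay above the sham median. Without tumor 46 the fold change was -0.15, and without sham tumor 3 it was -0.63. In heterozygote hosts the ranges were 6.83 to 9.66 (median 8.28) and 7.02 to 9.89 (median 8.0), with a fold change of -0.25 (SE 0.34, adjusted p = 0.959). Col12a1, a fiber-associated collagen, had fold changes of -0.15 in wild-type and -0.68 in heterozygote hosts. Col8a1, Col14a1 and Col18a1 lay between -0.15 and 0.12 in wild-type hosts and between -0.07 and -0.00 in heterozygote hosts.

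Lama4 encodes laminin alpha 4, a chain found around vessels and fat cells, and had the lowest p of all members in wild-type hosts. It ran from 9.36 to 11.35 (median 10.08) in sham and from 7.88 to 10.21 (median 9.69) in irradiated wild-type hosts, where 3 of 23 tumors lay above the sham median. The ranges overlapped from 9.36 to 10.21, and the highest sham value was again tumor 46. The fold change was -0.54 (95% interval -0.99 to -0.10, unadjusted p = 0.017), but the adjusted p was 0.617. Without tumor 46 the fold change was -0.39, and without sham tumor 60 it was -0.64. In heterozygote hosts Lama4 ran from 9.32 to 10.23 (median 9.89) and from 7.81 to 10.52 (median 9.62), with a fold change of -0.26 (SE 0.27, adjusted p = 0.948). Of 9 endothelial genes, 0 had a positive fold change in wild-type hosts (median -0.35) and 4 in heterozygote hosts (median -0.03). The shares of all genes with a positive fold change were 49.3% and 51.8%, and limma called none of the 9. The summed endothelial level, as a mean of 9 genes, ran from 6.52 to 11.71 in sham and 6.43 to 8.49 in irradiated wild-type hosts, and its part in the Lama4 value was not tested.

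Col4a1, the main chain of basement membrane collagen, ran from 11.57 to 14.16 (median 12.14) in sham and from 11.08 to 13.83 (median 12.16) in irradiated wild-type hosts. Tumors of heterozygote hosts ran from 11.90 to 13.05 (median 12.61) and from 11.12 to 14.29 (median 12.54). Medians within a genotype were nearly equal. Fold changes were -0.33 (95% interval -0.92 to 0.26, adjusted p = 0.889) and -0.12 (-0.83 to 0.59, adjusted p = 0.981). The wild-type value was -0.12 without sham tumor 46 and -0.45 without sham tumor 64. Lamb1, a laminin beta chain shared by many laminins, ran from 9.28 to 11.67 (median 10.85) and from 9.04 to 12.12 (median 10.89) in wild-type hosts. Its heterozygote ranges were 8.96 to 12.34 (median 10.78) in sham and 9.80 to 12.27 (median 10.99) in irradiated hosts. Its fold changes, 0.06 (SE 0.31, adjusted p = 0.984) and 0.10 (SE 0.38, adjusted p = 0.986), were among the few above 0. Of 3 dimmer probe sets of the gene, 2 gave 0.17 and 0.14 in wild-type and 0.29 and 0.37 in heterozygote hosts, and the dimmest gave -0.31 and -0.24.

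Nid2 encodes a nidogen that links laminin to type IV collagen. In wild-type hosts it ran from 6.12 to 11.18 (median 7.14) in sham and from 6.48 to 9.40 (median 7.27) in irradiated hosts, with a fold change of 0.02 (SE 0.36, adjusted p = 0.997). The sham value of 11.18 was tumor 46, and the next was 7.88. In heterozygote hosts it ran from 5.99 to 8.25 (median 7.34) and from 6.40 to 9.20 (median 7.31), with a fold change of 0.23 (SE 0.43, adjusted p = 0.974). Col4a2, Lama2, Lamc1 and Nid1 had fold changes from -0.37 to 0.00 in wild-type and from -0.36 to -0.05 in heterozygote hosts.

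Vcan, which encodes the large proteoglycan versican of loose, provisional matrix, was the member whose estimates differed most between genotypes. It ran from 7.40 to 10.25 (median 9.33) in sham and from 6.88 to 12.23 (median 9.70) in irradiated wild-type hosts. Heterozygote hosts gave values from 9.49 to 11.07 (median 10.25) in sham and from 6.20 to 11.61 (median 9.21) in irradiated hosts. In wild-type hosts 16 of 23 irradiated tumors lay above the sham median, and in heterozygote hosts 2 of 18 did, although both pairs of groups overlapped. Fold changes were 0.61 (95% interval -0.28 to 1.51, adjusted p = 0.845) and -1.16 (-2.24 to -0.09, unadjusted p = 0.035, adjusted p = 0.836). The difference between them was -1.78 (95% interval -3.18 to -0.37), with an unadjusted p of 0.014 and an adjusted p of 0.999, so it was not called. Another 2 probe sets of Vcan gave 0.65 and 0.68 in wild-type and -1.05 and -1.02 in heterozygote hosts. The difference was -1.69 without the tumors of low Epcam and lay between -1.94 and -1.13 over all settings and between -1.94 and -1.56 with each tumor left out in turn.

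Fmod, the gene of fibromodulin, a small proteoglycan of collagen fibers, ran from 4.63 to 9.22 (median 7.55) and from 5.5 to 11.71 (median 7.43) in wild-type hosts. Its range in heterozygote hosts was from 6.69 to 9.89 (median 7.70) in sham and from 4.87 to 10.01 (median 6.85) in irradiated hosts, of which 2 of 18 lay above the sham median. Fold changes were 0.21 (SE 0.51, adjusted p = 0.967) and -1.06 (SE 0.61, adjusted p = 0.900), and their difference -1.26 (SE 0.80, adjusted p = 0.999). Dcn encodes decorin, which binds type I collagen and TGF-beta. It ran from 8.30 to 12.07 (median 10.62) in sham and from 8.69 to 13.95 (median 9.82) in irradiated wild-type hosts, and 4 of 23 irradiated tumors lay above the sham median. In heterozygote hosts it ran from 8.70 to 12.90 (median 10.34) and from 7.71 to 14.06 (median 10.26). Its fold changes of -0.40 (95% interval -1.54 to 0.75, adjusted p = 0.935) and -0.40 (-1.77 to 0.96, adjusted p = 0.974) were small beside its spread. Lum, Bgn and Ogn had fold changes of -0.55, -0.15 and -0.02 in wild-type and -0.42, -0.53 and -0.83 in heterozygote hosts.

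**Figure D3:**
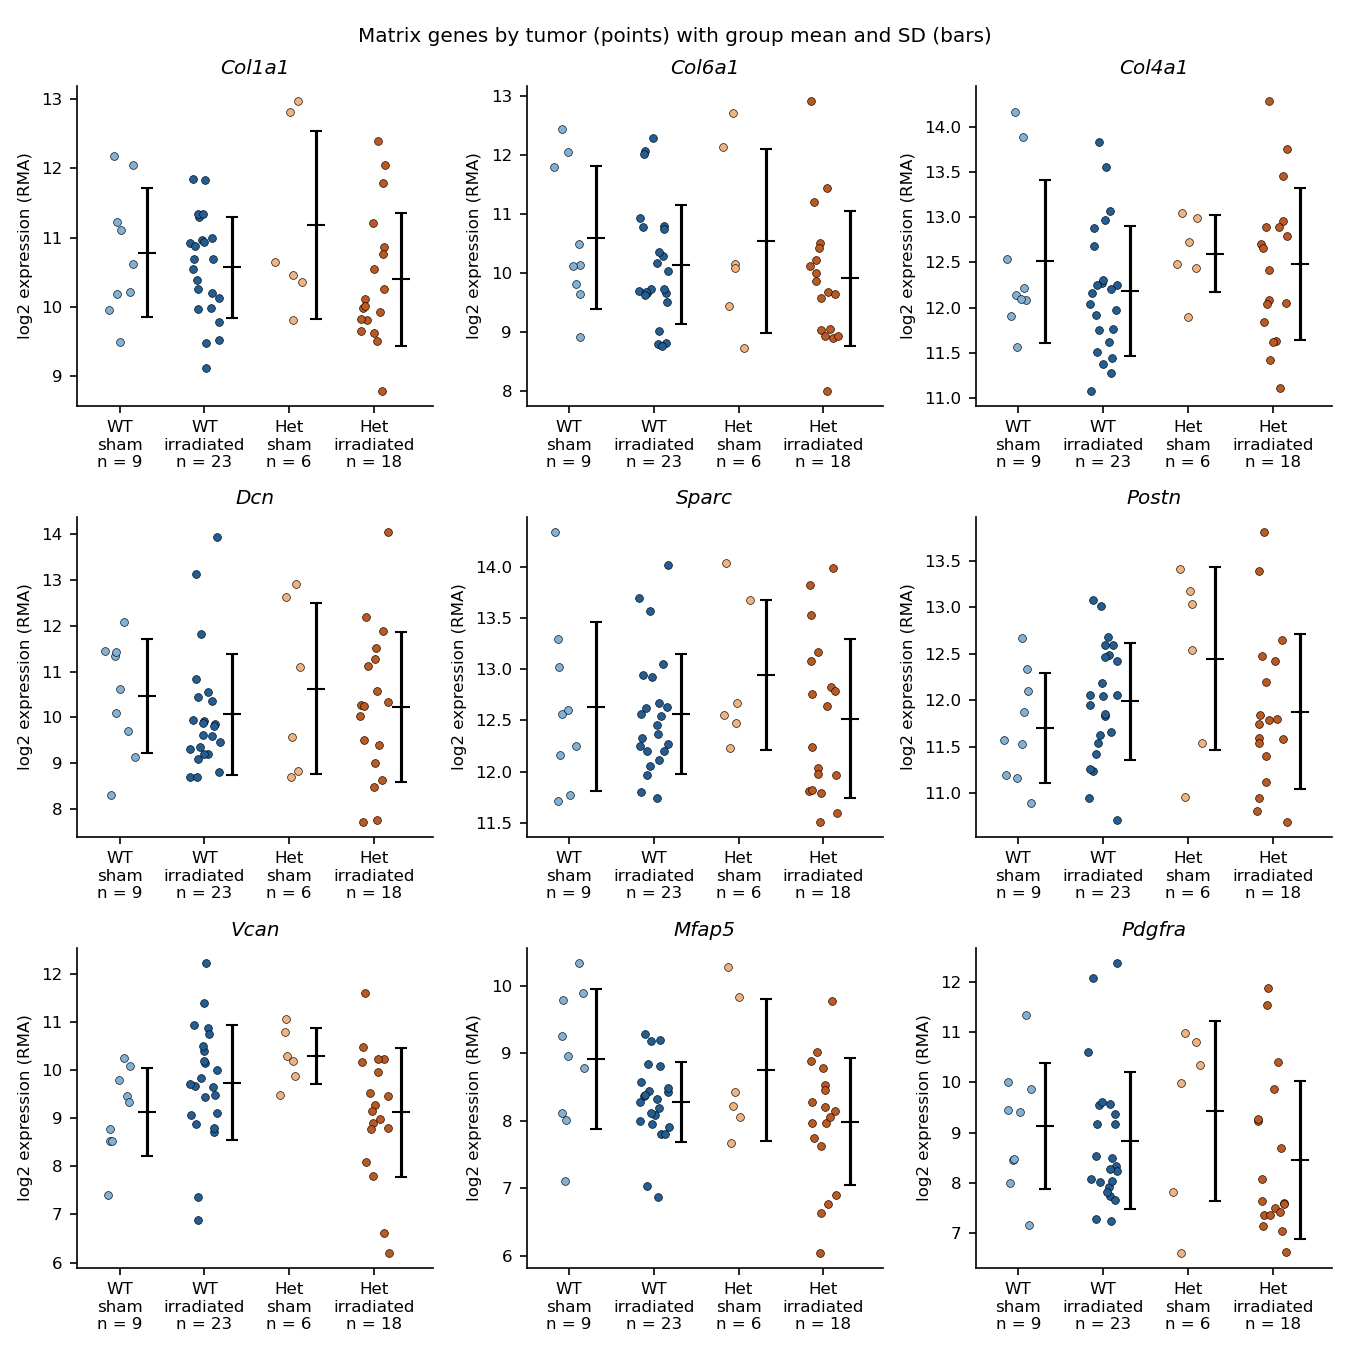
Log2 expression (vertical axis) of 9 matrix genes in each tumor, 1 panel per gene and 1 column per group, with the group mean and SD as bars to the right of the points. The groups overlap in every panel; Vcan shows the sham-irradiated heterozygote tumors between 9.49 and 11.07 and the irradiated ones from 6.20 to 11.61.

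Matricellular proteins sit in the matrix and act on cells more than they bear load. Sparc, which binds collagen as it is assembled, ran from 11.71 to 14.35 (median 12.57) in sham and from 11.74 to 14.02 (median 12.46) in irradiated wild-type hosts. In heterozygote hosts Sparc ran from 12.23 to 14.05 (median 12.61) and from 11.51 to 13.99 (median 12.44). Fold changes were -0.07 (SE 0.27, adjusted p = 0.978) and -0.43 (SE 0.33, adjusted p = 0.924). Postn encodes periostin, a protein of activated stroma. It ran from 10.89 to 12.67 (median 11.57) and from 10.70 to 13.08 (median 12.05) in wild-type hosts, where 17 of 23 irradiated tumors lay above the sham median. In heterozygote hosts the order was the other way: sham values ran from 10.96 to 13.41 (median 12.79) and irradiated ones from 10.69 to 13.82 (median 11.77), with 2 of 18 above the sham median. Fold changes were 0.28 (SE 0.29, adjusted p = 0.904) and -0.57 (SE 0.34, adjusted p = 0.900), and their difference of -0.85 (95% interval -1.75 to 0.04) had an adjusted p of 0.999.

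Mgp encodes matrix Gla protein, an inhibitor of calcification. It had the lowest p among members with a higher mean in irradiated heterozygote hosts. It ran from 9.03 to 12.18 (median 11.46) in sham and from 9.83 to 12.95 (median 11.36) in irradiated hosts, with a fold change of 0.27 (SE 0.45, adjusted p = 0.973). In wild-type hosts it ran from 9.57 to 13.38 (median 11.13) and from 9.88 to 13.27 (median 11.05), with a fold change of -0.12 (SE 0.37, adjusted p = 0.975). The medians go against the sign of the heterozygote estimate. Tnc, Thbs2 and Dpt had fold changes of -0.19, -0.06 and -0.38 in wild-type and -0.21, -0.59 and -0.44 in heterozygote hosts.

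Elastic fibers consist of elastin on a microfibril frame. Mfap5 encodes a microfibril protein and was the member with the lowest p when both genotypes were averaged. It ran from 7.11 to 10.34 (median 8.96) in sham and from 6.87 to 9.28 (median 8.32) in irradiated wild-type hosts, of which 3 of 23 lay above the sham median. In heterozygote hosts it ran from 7.67 to 10.28 (median 8.32) and from 6.04 to 9.78 (median 8.10). Fold changes were -0.64 (SE 0.32, adjusted p = 0.705) and -0.76 (SE 0.39, adjusted p = 0.870), and their mean -0.70 (95% interval -1.21 to -0.19, unadjusted p = 0.00774) had an adjusted p of 0.437. Over the alternative settings the wild-type value lay between -0.64 and -0.25. The heterozygote value lay between -0.76 and -0.08. Eln, elastin itself, ran from 6.68 to 9.99 (median 8.29) and from 6.95 to 9.01 (median 7.86) in wild-type hosts. Its heterozygote ranges were 6.83 to 10.35 (median 7.52) in sham and 6.29 to 9.04 (median 7.55) in irradiated hosts. Fold changes were -0.20 (SE 0.30, adjusted p = 0.942) and -0.30 (SE 0.37, adjusted p = 0.959). The fibulin genes Fbln1, Fbln2 and Fbln5 gave 0.12, -0.35 and -0.32 in wild-type and -0.80, -0.03 and 0.07 in heterozygote hosts.

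Lox encodes lysyl oxidase, which starts the cross-links of collagen and elastin. It ran from 7.89 to 10.44 (median 9.74) in sham and from 7.02 to 12.59 (median 8.96) in irradiated wild-type hosts. In heterozygote hosts it ran from 8.14 to 11.77 (median 8.91) and from 7.34 to 11.08 (median 8.63). The groups overlapped widely, and the 12.59 was tumor 25, one of low Epcam. Fold changes were -0.16 (SE 0.43, adjusted p = 0.970) and -0.87 (SE 0.52, adjusted p = 0.900). The heterozygote value was -0.44 without sham tumor 19 and -1.17 without sham tumor 52. Loxl1, a related enzyme, gave -0.43 and -0.52.

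Pdgfra and Pdgfrb encode growth factor receptors that mark fibroblasts and, for Pdgfrb, pericytes as well. Pdgfra ran from 7.17 to 11.35 (median 9.42) in sham and from 7.25 to 12.38 (median 8.34) in irradiated wild-type hosts. In heterozygote hosts Pdgfra ran from 6.61 to 10.98 (median 10.17) and from 6.63 to 11.89 (median 7.62), and 3 of 18 irradiated tumors lay above the sham median. Fold changes were -0.30 (95% interval -1.42 to 0.83, adjusted p = 0.958) and -0.97 (-2.32 to 0.39, adjusted p = 0.922). With each tumor left out in turn, the wild-type value ran from -0.54 (without sham tumor 3) to -0.02 (without sham tumor 60). The heterozygote value ran from -1.53 to -0.66. Dimmer probe sets of Pdgfra gave 0.09 and -0.12 in wild-type and -0.62 and -0.40 in heterozygote hosts. Pdgfrb ran from 9.02 to 12.53 (median 9.62) and from 8.64 to 12.15 (median 9.60) in wild-type hosts. Its heterozygote ranges were 8.20 to 12.02 (median 9.97) in sham and 8.66 to 12.52 (median 9.80) in irradiated hosts. Medians differed little, with fold changes of -0.05 (SE 0.40, adjusted p = 0.989) and -0.20 (SE 0.48, adjusted p = 0.979). Fap, a protease of activated fibroblasts, gave -0.34 and -0.18.

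Across tumors the fibrillar collagens, type VI collagen and the lysyl oxidases moved together, and several other roles did so less. Over all 903 pairs of members, with values centred on group means, the median Pearson correlation was 0.36 in 32 tumors of wild-type hosts and 0.53 in 24 of heterozygote hosts. Negative correlations made up 10.5% and 3.21% of pairs. Fibrillar collagens correlated with each other (median r 0.82 and 0.89 over 10 pairs), with type VI collagen (0.86 and 0.90 over 15 pairs) and with the lysyl oxidases (0.84 and 0.91 over 10 pairs). Basement membrane genes correlated among themselves (0.52 and 0.57 over 28 pairs), and less with the fibrillar collagens (0.31 and 0.53 over 40 pairs). With type VI collagen their median r was 0.40 and 0.60 over 24 pairs. Some roles lay below the median of all pairs in both genotypes. These were the proteoglycans (0.22 and 0.48 over 15 pairs), elastic fiber genes (0.22 and 0.32 over 10 pairs) and other non-fibrillar collagens (0.33 and 0.37 over 10 pairs). Col1a1 with Col4a1 had r = 0.01 in wild-type and 0.31 in heterozygote hosts, against 0.75 and 0.90 for Col1a1 with Col6a1. These are descriptions over tumors that share an array platform and a normalization, and each tumor's mix of cells enters all its values. Without the low Epcam tumors the median over all pairs was 0.29 and 0.51.

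The members least tied to the rest were Lama4, Fbln5 and Col18a1 in wild-type hosts, with a median r to the other members of 0.05, 0.05 and 0.11. Col18a1 and Vcan were lowest in heterozygote hosts, with 0.12 and 0.23. Sparc had the highest value in wild-type hosts, 0.60, and Pdgfrb in heterozygote hosts, 0.74. Sparc correlated most with the nidogen Nid1 in wild-type hosts (r = 0.88), and Pdgfrb with Col6a3 in heterozygote hosts (r = 0.96).

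**Figure D4:**
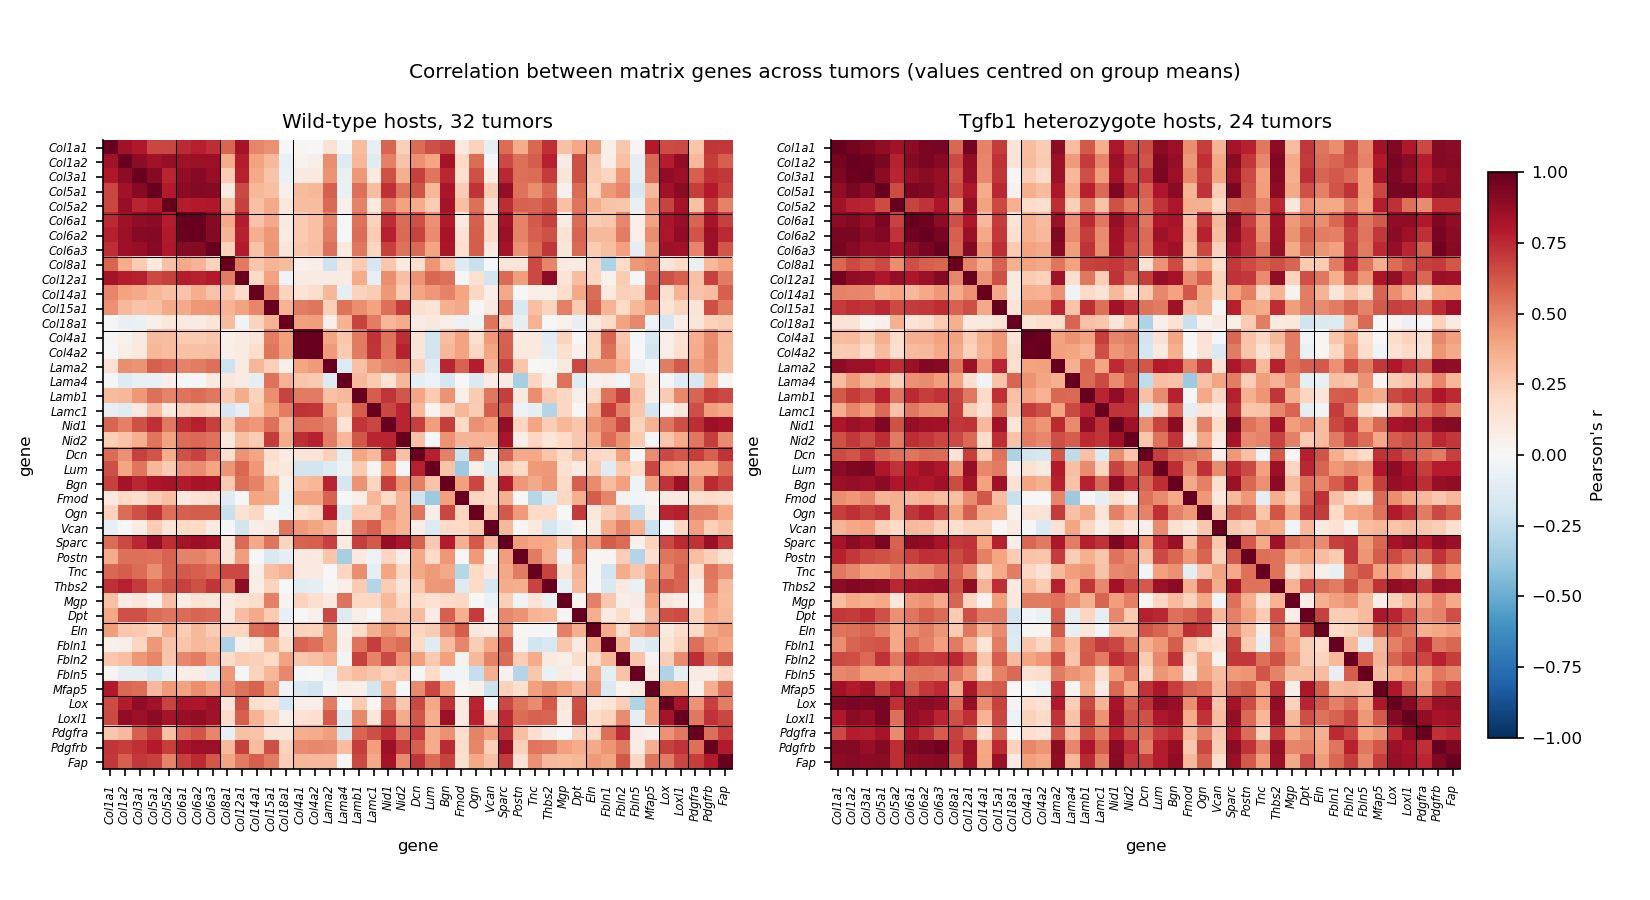
Pearson correlation between each pair of 43 matrix genes, by color from -1 (blue) to 1 (red), across 32 tumors of wild-type hosts (left) and 24 of heterozygote hosts (right), after values were centred on group means. Lines separate the roles; the block of fibrillar and type VI collagens at the upper left is red in both, with a median r of 0.86 and 0.90 between these roles.

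For 15 pairs of known partners or markers, the relation was tested in each genotype, 30 relations in all, by permutation of tumors with Benjamini-Hochberg adjustment over the 30. Unless said to be of rho, the permutation p-values printed with a relation, adjusted or not, are those of Pearson's r. By Pearson's r, 25 of the 30 had an adjusted p below 0.05, 12 in wild-type and 13 in heterozygote hosts. By Spearman's rho, Eln with Loxl1 and Dcn with Adipoq in heterozygote hosts were no longer below it. The smallest p that 100000 permutations can give was 1e-05, or 2.5e-05 after adjustment. Member pairs at large were also related, with a median r of 0.36 in wild-type and 0.53 in heterozygote hosts over all 903 pairs. The count of 25 therefore does not set partners apart from other members. No test asked whether a called relation was particular to its pair.

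The chain pairs of types IV and VI collagen were the most tightly related of the 15. Col4a1 and Col4a2, the head-to-head pair, had r = 0.99 (rho = 0.98, permutation p = 1e-05, n = 32) in wild-type and r = 0.98 (rho = 0.97, permutation p = 1e-05, n = 24) in heterozygote hosts. Without the 2 tumors farthest from the median of Col4a1, r was 0.98 and 0.97. Col6a1 and Col6a2 had r = 0.99 (rho = 0.98) and 0.97 (rho = 0.92), both with a permutation p of 1e-05, and 0.98 and 0.95 without 2 tumors. Col1a1 and Col1a2, on different chromosomes, had r = 0.84 (rho = 0.88) and 0.96 (rho = 0.90), again with p = 1e-05 by permutation. In wild-type hosts tumor 11 of an irradiated host departed from the line, with Col1a2 at 14.42, the highest of its group, and Col1a1 at 10.20; without the low Epcam tumors, of which it is one, r was 0.95. The type V chains Col5a1 and Col5a2 were looser, with r = 0.79 (rho = 0.80, permutation p = 1e-05) in wild-type and 0.69 (rho = 0.64, permutation p = 0.00028, adjusted 0.000474) in heterozygote hosts. The heterozygote value was 0.46 without tumors 15 and 19 of sham-irradiated hosts and 0.88 without the low Epcam tumors.

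Other partners ranged widely. Nid1 and Nid2 had r = 0.76 (rho = 0.75) in wild-type and 0.83 (rho = 0.83) in heterozygote hosts (permutation p = 1e-05 in each). Lamb1 and Lamc1, chains of the same laminins, had r = 0.60 (rho = 0.64, permutation p = 0.0003, adjusted 0.000474) and 0.71 (rho = 0.74, permutation p = 0.00017, adjusted 0.000319). Dcn and Lum had r = 0.78 (rho = 0.81, permutation p = 1e-05) and 0.70 (rho = 0.76, permutation p = 0.00012, adjusted 0.00024). Tumor 32 of an irradiated heterozygote host had the highest Dcn of its group, 14.06, but a Lum of 7.27, and r was 0.91 without it and tumor 15 of a sham-irradiated host. Pdgfra and Pdgfrb had r = 0.55 (rho = 0.53, permutation p = 0.00161, adjusted 0.0022) and 0.72 (rho = 0.67, permutation p = 7e-05, adjusted 0.00015), which became 0.26 and 0.63 without the low Epcam tumors. Elastin and Loxl1, an enzyme needed for elastic fibers, were not detectably related in wild-type hosts, with r = 0.20 (rho = 0.31, permutation p = 0.277, adjusted 0.308). In heterozygote hosts they had r = 0.56 (permutation p = 0.00485, adjusted 0.00633), which became 0.34 without tumors 19 and 23. Their rho there was 0.40 (permutation p of rho 0.05485, adjusted 0.0633). Without the low Epcam tumors, tumor 19 among them, r was 0.41 in wild-type and 0.60 in heterozygote hosts.

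**Figure D5:**
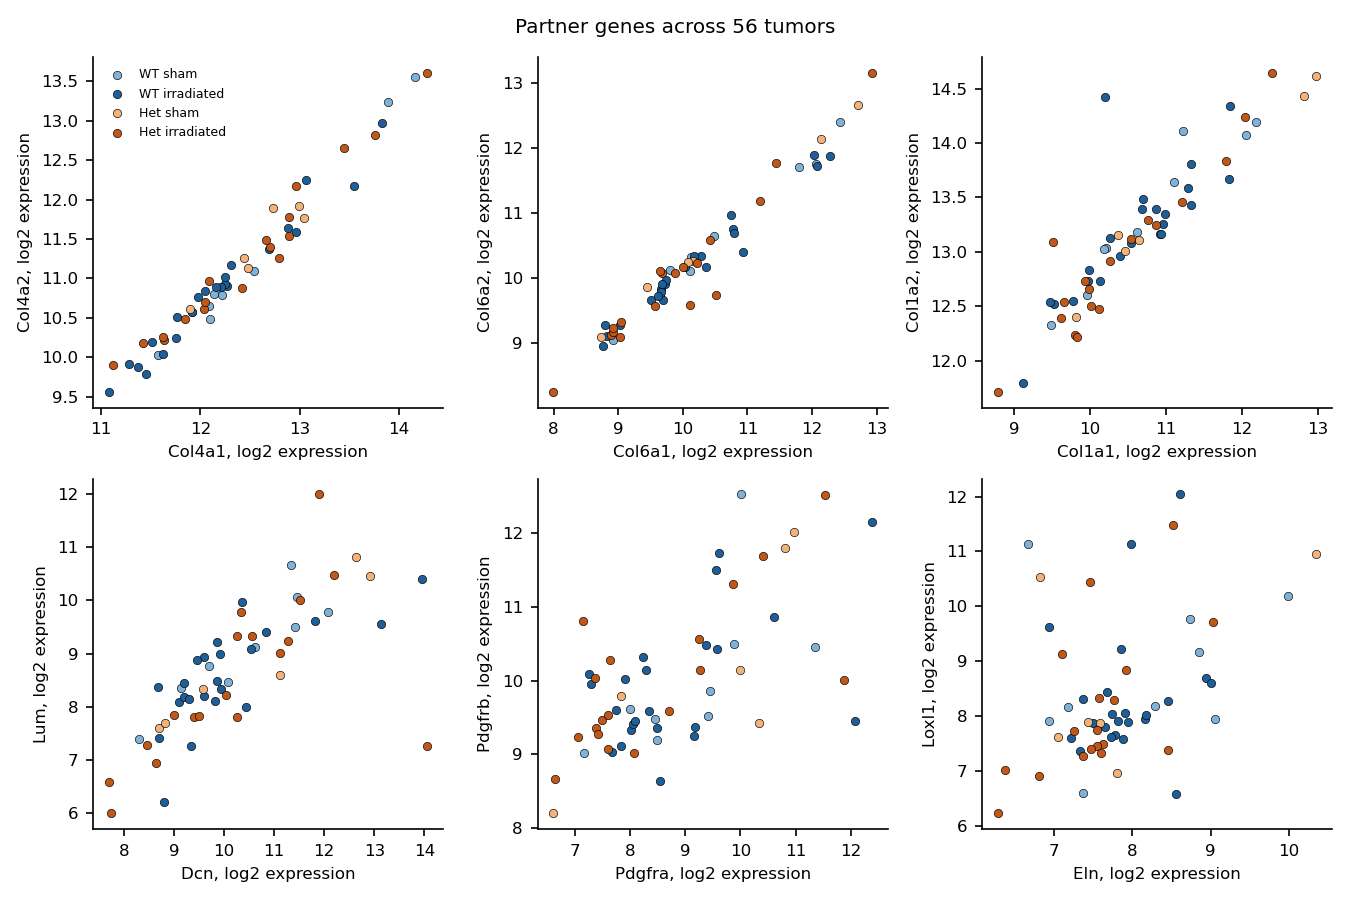
Log2 expression of 6 pairs of matrix genes in 56 tumors, 1 point per tumor and 1 color per group. Col4a1 with Col4a2 and Col6a1 with Col6a2 lie close to a line, with r between 0.97 and 0.99, while Eln with Loxl1 scatters, with r of 0.20 in wild-type and 0.56 in heterozygote hosts.

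Relations to Tgfb1 and to markers of other cells were also taken. Col4a1 and the endothelial gene Pecam1 had r = 0.57 in wild-type hosts (rho = 0.61, permutation p = 0.00083, adjusted 0.00119), and 0.46 without tumors 46 and 61. In heterozygote hosts r was 0.38 (rho = 0.40, permutation p = 0.0708, adjusted 0.0816). Without the low Epcam tumors r for this pair was 0.33 in wild-type and 0.35 in heterozygote hosts. Dcn and Adipoq, the adiponectin gene of fat cells, had r = 0.05 (permutation p = 0.771, adjusted 0.798) and 0.45 (permutation p = 0.0283, adjusted 0.034). Their rho was 0.14 in wild-type and 0.41 in heterozygote hosts, the latter with a permutation p of rho of 0.04525 (adjusted 0.0566). Col1a1 and Tgfb1 had r = 0.57 (permutation p = 0.00029, adjusted 0.000474) in wild-type and 0.48 (permutation p = 0.0172, adjusted 0.0215) in heterozygote hosts. Their rho was 0.38 (permutation p of rho 0.0322, adjusted 0.042) and 0.52 (permutation p of rho 0.00968, adjusted 0.0132). Without the 2 tumors farthest from the median of Col1a1 the values of r became 0.40 and 0.45.

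Genes that work on the same matrix gave no calls either. Over all genes, 50.7% of estimates were negative in wild-type and 48.2% in heterozygote hosts. Of 16 measured collagen processing genes, which hydroxylate, fold and trim collagen in or outside the cell, 15 had a negative estimate in wild-type and 12 in heterozygote hosts, with medians of -0.13 and -0.20. Plod2 and P4ha1, a lysyl and a prolyl hydroxylase, had fold changes of -0.32 and -0.22 in wild-type and -0.49 and -0.29 in heterozygote hosts. Of 20 other matrix genes, 11 were negative in wild-type and 12 in heterozygote hosts, with medians of -0.08 and -0.19. Ltbp1, which encodes a protein that holds latent TGF-beta in the matrix, had fold changes of 0.50 and 0.83. The 12 measured matrix receptors had medians of 0.03 and 0.09, and 11 matrix proteases and inhibitors -0.10 and -0.15. Over 11 genes that respond to TGF-beta the medians were 0.04 and 0.07. Limma called 0 genes of these lists in both genotypes. At an unadjusted p below 0.05 it found 2 of 20 other matrix genes lower in wild-type and 1 of 20 lower in heterozygote hosts. Of 11 TGF-beta response genes, 1 was lower in wild-type and 1 higher in heterozygote hosts. The shares of all genes at that p were 3.9% lower in wild-type hosts, and 2.95% lower and 2.89% higher in heterozygote hosts.

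Markers of other cells were read beside the members, and limma called none of them in either genotype. Of all genes, 50.7% had a negative estimate in wild-type and 48.2% in heterozygote hosts. Of 11 fibroblast markers that are not members, 9 were negative in wild-type and 8 in heterozygote hosts. Of 10 epithelial genes, 7 were positive in wild-type (median 0.15) and 10 in heterozygote hosts (median 0.41). Basal epithelial genes went the other way in heterozygote hosts: 5 of 6 were negative there (median -1.18), while 6 of 6 were positive in wild-type hosts (median 0.23). Col17a1, a collagen of hemidesmosomes, had a fold change of -2.78 (unadjusted p = 0.00131, adjusted p = 0.628), and Krt5, a basal keratin, -1.94 (unadjusted p = 0.00713, adjusted p = 0.676). The mean of the 6 basal genes ran from 5.61 to 11.34 in sham and from 6.14 to 10.11 in irradiated heterozygote hosts. Of 7 contractile genes of smooth muscle and myoepithelium, 6 were negative in heterozygote hosts (median -0.81) and 7 in wild-type hosts (median -0.08). By limma 2 of the 7 were lower at an unadjusted p below 0.05 in heterozygote hosts, against 2.95% of all genes in that direction. Of 5 adipocyte genes, 5 were positive in heterozygote (median 0.51) and 0 in wild-type hosts (median -0.29). The part of these cell types in the members' estimates was not tested.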

How the data were processed

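Total RNA of each tumor was hybridised to an Affymetrix 3′ expression array, per the labels' protocols. The file the authors deposited gives log2 values for each probe set, from RMA per the submitters' processing notes (version not given in the sources used here). Array medians of the 2 host genotypes did not overlap, so they were treated as normalized separately. Probe sets above 5.83, the median over the whole matrix, on 6 or more arrays entered the tests, 1 per gene (the highest mean). limma 3.58.1 (R 4.3.3) was fitted to 12508 genes and 56 arrays with 4 group means, with Benjamini-Hochberg adjustment over all genes at 0.05. The number of arrays limits the precision. Partner correlations used 100000 permutations, two-sided (scipy 1.17.1, Python 3.11.15). Methods were checked on simulated data. The members, gene lists, pairs and rules were chosen with earlier results of these data known. Genes with full statistics were the 3 of lowest p in each direction per genotype, the 3 of lowest p for the difference and 12 representatives of the roles. Of each other list at most 2 genes of lowest p were eligible. Alternatives were other filters, probe sets, normalization and variance models, array weights, 3′ minus 5′, 18S and epithelial covariates, arrays of low 18S left out, and each array left out in turn. Leaving out the tumors of Epcam below 12 and the pair Col3a1 and Col5a2 were added after seeing the data. Plots used matplotlib 3.10.9.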

Additional observations from a re-analysis of the deposited data

Results flagged for a closer look

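Of 86 sets of sham values tested (43 members in 2 groups, of 9 and 6 tumors), 7 had a highest tumor far from the rest of its group. All 7 fell on tumors 46 and 19. Chance gives about 1 in 20 for separate sets. Members vary together across tumors, so the 86 sets are not separate and that rate cannot be set against the 7. Tumor 46 of the sham-irradiated wild-type hosts stood apart for 5 members. Its Col15a1 was 11.17, where the other 8 tumors ran from 7.31 to 8.44. Its Lama2 was 8.21 (others 6.19 to 7.14), its Lamc1 11.04 (8.58 to 9.77), its Nid2 11.18 (6.12 to 7.88) and its Pdgfrb 12.53 (9.02 to 10.50). The same tumor had a Pecam1 of 12.26 and the highest mean of the 9 endothelial genes, 11.71. Among sham-irradiated heterozygote hosts, tumor 19 stood apart for Ogn, at 10.19 (others 5.10 to 6.42), and for Eln, at 10.35 (6.83 to 7.81). That tumor had the highest mean of the 43 members of all tumors of heterozygote hosts, 11.43.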

How the results depend on the processing

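No member was called in any comparison by limma under any setting run. The lowest adjusted p over all settings was 0.361 in wild-type hosts, 0.578 in heterozygote hosts, 0.628 for their difference and 0.297 for their mean. The median log2 fold change of the members kept its sign except with the 18S covariate in wild-type hosts, where it was 0.12, and without the tumors of low Epcam in heterozygote hosts, where it was 0.051. With each tumor left out in turn it ran from -0.31 to -0.01 in wild-type, from -0.67 to -0.10 in heterozygote hosts and from -0.43 to -0.20 averaged. The highest of these left out tumor 46 of the sham-irradiated wild-type or tumor 19 of the sham-irradiated heterozygote hosts. The lowest left out tumor 3 of the sham-irradiated wild-type or tumor 52 of the sham-irradiated heterozygote hosts.

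Signs of single uncalled estimates turned as follows, and the cause was not tested. In wild-type hosts the 18S covariate gave Col1a1 0.20, Col3a1 0.22, Col5a2 0.21, Col6a1 0.013, Dcn 0.48, Sparc 0.10, Eln 0.056, Lox 0.35, Pdgfra 0.19, Pdgfrb 0.29 and Nid2 -0.029. Leaving out arrays of low 18S gave Fmod -0.13, Lamb1 -0.18 and Nid2 -0.56, and array weights Fmod -0.36. Pdgfrb was 0.0009 with the epithelial covariate. Without the tumors of low Epcam, Pdgfrb was 0.13 and Sparc 0.048 in wild-type hosts. In heterozygote hosts that setting gave Mgp -0.12, Col1a1 0.004, Col6a1 0.081, Dcn 0.56, Eln 0.011, Pdgfrb 0.49 and Col15a1 0.27. Also in heterozygote hosts, array weights gave Mgp -0.050, leaving out arrays of low 18S gave Eln 0.23 and Pdgfrb 0.058, the 3′ minus 5′ covariate gave Pdgfrb 0.13 and Col15a1 0.092, and the epithelial covariate gave Pdgfrb 0.031.

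With each tumor left out in turn, estimates in wild-type hosts ran for Fmod from -0.13 to 0.44, for Lamb1 from -0.13 to 0.17, for Sparc from -0.19 to 0.14, for Eln from -0.38 to 0.036, for Pdgfrb from -0.17 to 0.26, for Mgp from -0.35 to 0.13, for Nid2 from -0.15 to 0.48 and for Col5a2 from -0.20 to 0.066. In heterozygote hosts they ran for Mgp from -0.14 to 0.49, for Nid2 from -0.023 to 0.43, for Lamb1 from -0.28 to 0.39, for Dcn from -0.79 to 0.051, for Eln from -0.51 to 0.20, for Pdgfrb from -0.60 to 0.16 and for Col15a1 from -0.55 to 0.021. The partner and marker correlations kept their sign under the alternatives, except Col1a1 with Epcam in wild-type hosts, which ran from -0.21 to 0.033. No paired analysis was possible because replicate numbers do not recur across groups. Signal over background per array was not analysed here.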
